A study of Mus musculus with 4 samples.

Results

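Lineage-specifying transcription factors are the DNA-binding proteins that commit cells of the early embryo to trophoblast, endoderm, mesoderm, neuroectoderm or neural crest. The set described here held 40 such genes out of 21787 protein-coding genes of the RefSeq annotation, with 5 assigned to trophoblast, 9 to endoderm, 13 to mesoderm, 7 to neuroectoderm and 6 to neural crest. H3K27ac (acetyl-lysine 27 of histone H3, found at active enhancers and promoters) regions were assigned to a factor when the deposited annotation named it as the gene with the nearest transcription start site (TSS). H3K4me3 (trimethyl-lysine 4 of histone H3, found at promoters) regions were assigned when they overlapped the gene body or lay within 5 kb of a TSS.

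The chromatin came from mouse embryonic stem (ES) cells, which are derived from the inner cell mass of the blastocyst. One group was derived from C57BL/6 (B6) mice, which do not develop autoimmune diabetes, and the other from non-obese diabetic (NOD) mice, a model of type 1 diabetes. The labels give no genetic modification or age for either, and both were grown in 2i medium, which holds inhibitors of the kinases MEK and GSK3. The study concentrated on male NOD lines, and which line gave the chromatin is not given in the sources used here. Each strain and mark was represented by 1 library, so there were 4 libraries and 4 lists, without replicates, and strain, cell line and library cannot be told apart. Each list holds regions that were called in 1 strain over the other, and a factor that is in none of them may still carry the mark to a similar degree in both strains.

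These factors are mostly silent in ES cells, and many of their promoters lie in CpG islands, stretches of DNA rich in the dinucleotide CG. In ES cells, such promoters are known to carry H3K4me3 together with the repressive mark H3K27me3, a state called bivalent, which is resolved when a cell takes up a lineage. H3K27me3 was not analysed here, so bivalency was not measured. H3K27ac away from promoters is a common mark of active enhancers.

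Because both marks are read along DNA, the sequences at the centre of the results are printed first, in lower case with each CpG in capitals. The first set shows 250 bases immediately upstream of a TSS, on the strand of the gene, from the RefSeq promoter table of GRCm38.p6 (the mm10 build), for a mesoderm, a trophoblast and a neuroectoderm factor whose H3K4me3 regions covered the start site. They are chr17:8434173-8434422 (plus strand, 14 CpG) at T, chr6:88193641-88193890 (plus strand, 22 CpG) at Gata2 and chr16:91225300-91225549 (plus strand, 22 CpG) at Olig2. The T and Gata2 sequences were covered by NOD-enriched H3K4me3 over 250 and 208 bases, respectively, and the Olig2 sequence by B6-enriched H3K4me3 over 250 bases.
T upstream: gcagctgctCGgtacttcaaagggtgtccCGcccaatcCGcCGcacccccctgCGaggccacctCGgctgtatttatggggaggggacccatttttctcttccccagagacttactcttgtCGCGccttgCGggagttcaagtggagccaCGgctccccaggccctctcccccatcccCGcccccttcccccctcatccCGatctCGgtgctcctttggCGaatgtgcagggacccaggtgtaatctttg
Gata2 upstream: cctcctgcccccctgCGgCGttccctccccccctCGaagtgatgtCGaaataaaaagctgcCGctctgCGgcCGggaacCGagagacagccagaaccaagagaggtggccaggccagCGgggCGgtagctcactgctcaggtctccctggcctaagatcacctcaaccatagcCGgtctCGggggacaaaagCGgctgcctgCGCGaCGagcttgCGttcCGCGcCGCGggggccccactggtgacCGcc
Olig2 upstream: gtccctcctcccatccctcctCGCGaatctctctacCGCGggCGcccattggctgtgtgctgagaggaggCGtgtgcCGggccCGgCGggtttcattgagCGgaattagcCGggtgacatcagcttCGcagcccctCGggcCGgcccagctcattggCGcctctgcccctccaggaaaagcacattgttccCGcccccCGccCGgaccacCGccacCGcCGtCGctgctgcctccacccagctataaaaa

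The second set shows short H3K27ac regions in full, on the plus strand, at Foxd3, at Hnf4a and in an intron of Cdx2. They are chr4:99635694-99635927 (1 CpG) and chr4:99650219-99650452 (10 CpG) upstream of Foxd3, chr2:163515608-163515841 (1 CpG) in an intron of Hnf4a and chr5:147304559-147304792 (14 CpG) in an intron of Cdx2, all NOD-enriched. They ranged from almost CpG-free DNA to the CpG island of Cdx2. The Foxd3 region with 10 CpG and the Hnf4a region lay 2.57 kb and 4.68 kb from an H3K4me3 region of the same gene. For the Foxd3 region with 1 CpG the smallest such gap was 17.1 kb.
Foxd3 at -20.5 kb: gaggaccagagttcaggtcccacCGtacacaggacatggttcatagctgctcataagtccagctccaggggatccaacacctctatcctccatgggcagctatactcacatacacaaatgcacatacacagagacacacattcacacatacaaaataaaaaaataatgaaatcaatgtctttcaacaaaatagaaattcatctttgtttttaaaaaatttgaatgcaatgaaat
Foxd3 at -5.96 kb: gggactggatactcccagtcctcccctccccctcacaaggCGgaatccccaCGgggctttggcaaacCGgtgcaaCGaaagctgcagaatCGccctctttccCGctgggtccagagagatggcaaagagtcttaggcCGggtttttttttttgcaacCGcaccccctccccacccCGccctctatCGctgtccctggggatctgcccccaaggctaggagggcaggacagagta
Hnf4a intron: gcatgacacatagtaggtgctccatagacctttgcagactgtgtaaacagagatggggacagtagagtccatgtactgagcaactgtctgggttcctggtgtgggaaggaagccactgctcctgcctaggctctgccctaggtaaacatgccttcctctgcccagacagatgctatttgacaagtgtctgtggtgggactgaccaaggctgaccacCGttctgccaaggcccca
Cdx2 intron: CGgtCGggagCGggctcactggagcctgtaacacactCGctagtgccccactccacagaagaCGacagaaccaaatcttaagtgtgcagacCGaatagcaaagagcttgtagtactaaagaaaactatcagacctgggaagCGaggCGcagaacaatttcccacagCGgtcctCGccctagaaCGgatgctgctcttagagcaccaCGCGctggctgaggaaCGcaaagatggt

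The H3K4me3 libraries held 22750449 tags (mapped reads) for NOD and 14791364 for B6, a ratio of 1.54, and the file headers placed 2.66% and 1.32% of them in enriched regions. For H3K4me3 the NOD list held 12077 regions and the B6 list 7587, and for H3K27ac they held 6126 and 5525. How deeply H3K27ac was sequenced is unknown. NOD-enriched regions made up 59.0% to 65.9% of H3K4me3 regions on the 17 autosomes other than 6 and 8, against 35.0% on chromosome 6, 68.1% on chromosome 8 and 79.0% on the X chromosome. For H3K27ac these shares were 44.6% to 56.8%, 35.1%, 63.6% and 69.3%. The chromosome is therefore given with the factors it touches, which are Gata2 on chromosome 6, Hand2 and Sox1 on chromosome 8 and Sox3 on the X chromosome. The lists give no levels of the marks outside strain-enriched regions, so the ES cell label could not be checked from them. Of 8 pluripotency markers (Pou5f1, Sox2, Nanog, Esrrb, Klf4, Zfp42, Tfcp2l1 and Tbx3), 5 had a NOD-enriched and 2 a B6-enriched H3K4me3 region, and 4 and 3 had an H3K27ac region in the same order. Of all protein-coding genes, 24.4% and 16.5% had such H3K4me3 regions, and 18.3% and 16.7% such H3K27ac regions. The raised NOD H3K4me3 share described below was thus also seen at these few pluripotency markers.

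Across the 40 factors, the counts differed most between the strains for H3K4me3. NOD-enriched H3K4me3 was present at 20 of 40 factors (50.0%), where 24.4% of all protein-coding genes had such a region by the same rule. B6-enriched H3K4me3 was present at 8 of 40 (20%), against 16.5% of all genes. NOD-enriched H3K27ac was named for 11 factors (27.5%), against 18.3% of all genes, and B6-enriched H3K27ac for 8 factors (20%), against 16.7%. By these rules the share of factors in the B6 lists lay near that of all genes, while it was higher in the NOD lists, by the widest margin for H3K4me3. The H3K27ac margin rested on few factors. When the gene body or 5 kb was required, 4 factors had NOD-enriched and 3 had B6-enriched H3K27ac. With 1 library per strain there is no test of these differences.

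Close to the start site, the shares in both strains were above those of all genes. Within 1 kb of a TSS, NOD-enriched H3K4me3 was found at 14 factors (35.0%), against 8.53% of all genes, and B6-enriched H3K4me3 at 5 factors (12.5%), against 5.31%. In all, 30 of 40 factors (75.0%) had a region in at least 1 of the 4 lists, against 50.2% of all genes. The 10 factors without any region by these rules were Sox17, Sox7 and Foxa1 (endoderm), Mixl1, Mesp1, Tbx6 and Lhx1 (mesoderm), Neurog1 (neuroectoderm), and Pax3 and Sox10 (neural crest).

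Among 43 other lineage factors, 19 (44.2%) had NOD-enriched H3K4me3, against 24.4% of all genes, and 4 (9.3%) B6-enriched H3K4me3, against 16.5%. Within 1 kb of a TSS these were 14 (32.6%), against 8.53%, and 2 (4.65%), against 5.31%. The raised B6 share close to the start site was thus not seen in this second set. NOD-enriched H3K27ac was named for 10 (23.3%), against 18.3%, and B6-enriched H3K27ac for 7 (16.3%), against 16.7%. By H3K4me3 the most tags in the NOD list were at Tbx1 (345 NOD and 49 B6 tags), Lhx2 (343 and 39) and Msx2 (303 and 38). In the B6 list they were at Sox11 (34 NOD and 114 B6 tags), Foxf1 (11 and 40) and Tead4 (2 and 27). The highest H3K27ac scores were at Msgn1 (257.2), Msx2 (208.3) and Foxc1 (22.9) in the NOD list, and at Sox11 (65.4), Meox1 (27.2) and Tead4 (21.3) in the B6 list.

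**Figure D1:**
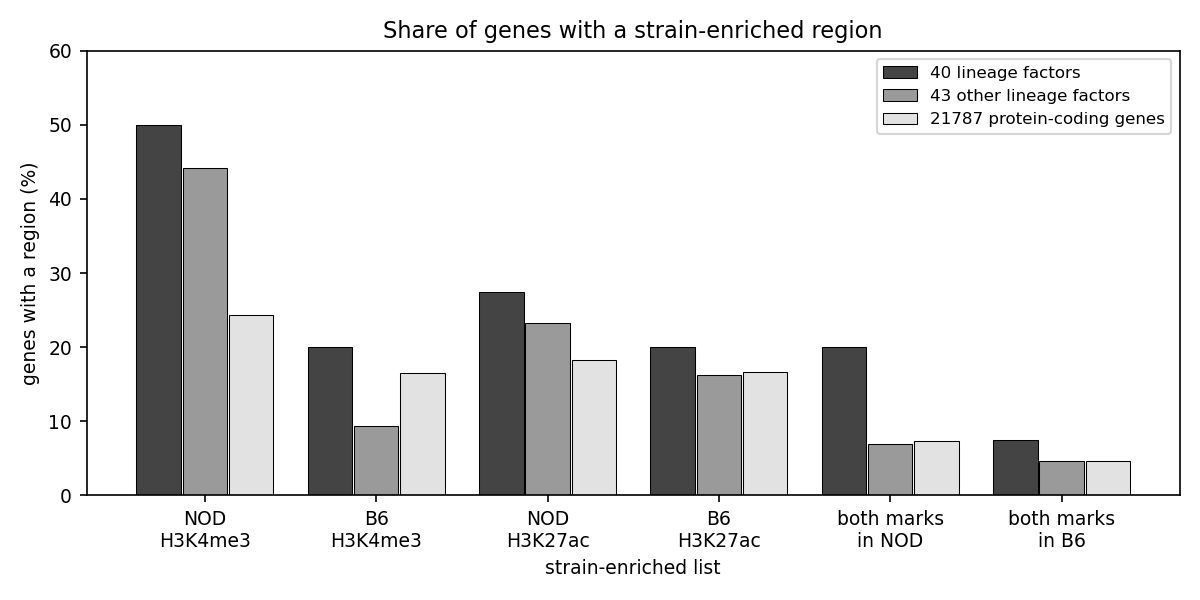
Bars show the percentage of genes (y axis, starting at 0) with a strain-enriched region in each list (x axis) for the 40 lineage factors, the 43 other lineage factors and all 21787 protein-coding genes. Both factor sets stand highest over all genes in the NOD H3K4me3 list, at 50.0% and 44.2% against 24.4%.

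All 5 germ layers held factors with NOD-enriched H3K4me3, with 2 of 5 trophoblast, 5 of 9 endoderm, 6 of 13 mesoderm, 4 of 7 neuroectoderm and 3 of 6 neural crest factors. B6-enriched H3K4me3 was found at 2, 3, 1, 2 and 0 factors of these layers. In the H3K27ac lists, the layers had 2, 2, 3, 3 and 1 factors with NOD-enriched and 3, 0, 1, 2 and 2 with B6-enriched regions. All 5 trophoblast factors had a region in some list, and so did 6 endoderm, 9 mesoderm, 6 neuroectoderm and 4 neural crest factors. Of the 25 factors with H3K4me3 regions, 17 had them only in the NOD list and 5 only in the B6 list. Foxa2, Gata3 and Gata4 had regions in both. Shares of all genes with regions in 1 list only were not computed, and the NOD list was longer (12077 regions against 7587).

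**Figure D2:**
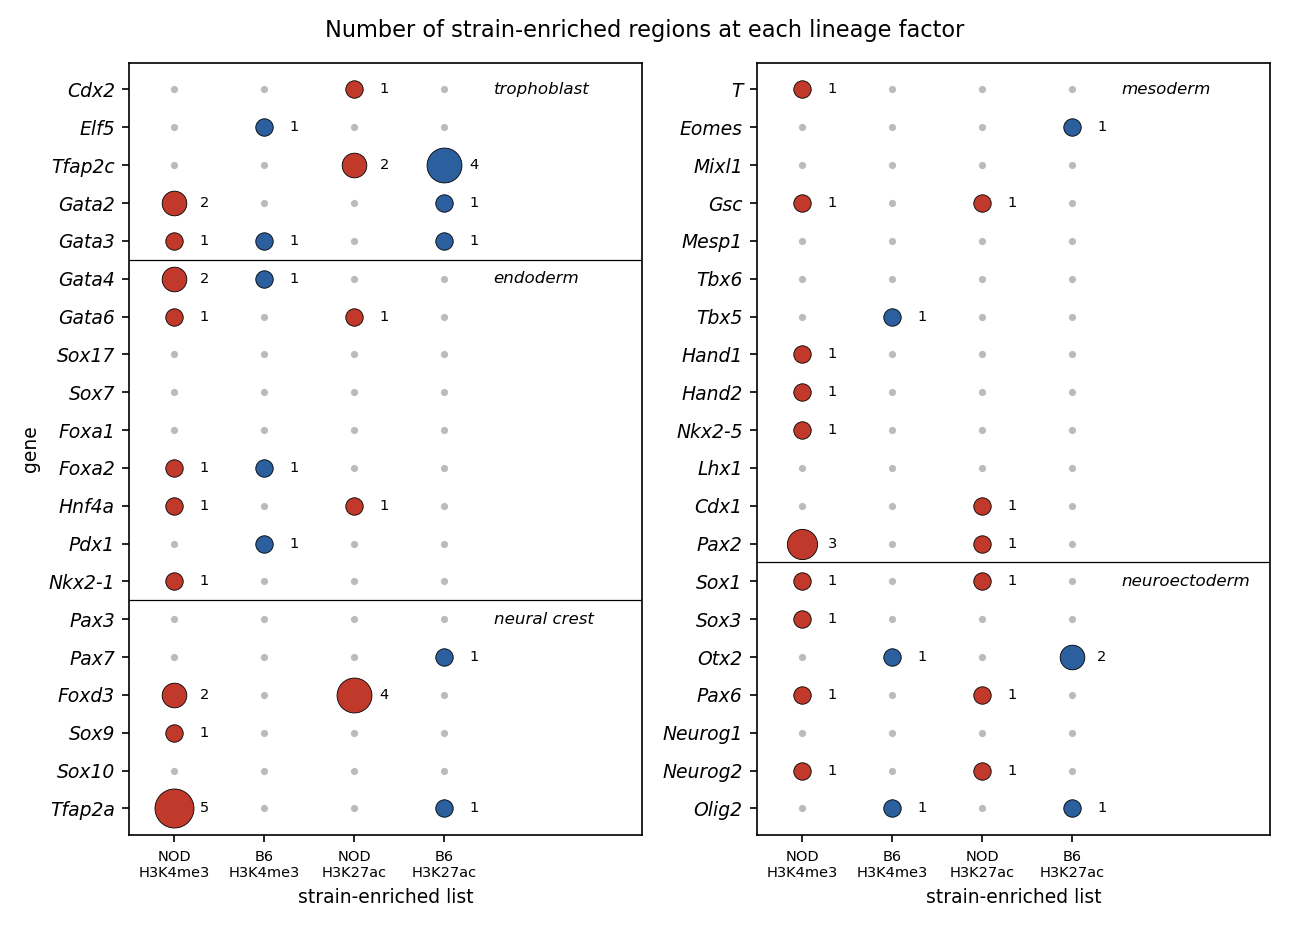
Each row is a lineage factor and each column (x axis) a strain-enriched list, and the area and the printed number of a circle give the regions at that factor, in red for NOD and blue for B6. Small grey dots mark factors without a region, and the largest numbers are 5 H3K4me3 regions at Tfap2a in NOD and 4 H3K27ac regions each at Foxd3 in NOD and at Tfap2c in B6.

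The 29 NOD-enriched H3K4me3 regions together held 2352 NOD and 269 B6 tags over 19.1 kb, which corresponds to 5.68-fold more in NOD after scaling to library size (95% interval 5.01 to 6.47). The 8 B6-enriched regions held 99 NOD and 397 B6 tags over 6.46 kb, 6.17-fold more in B6 (4.94 to 7.77). Intervals are exact conditional binomial intervals, cover counting error only and do not cover variation between cultures. These sums follow from how the regions were called and are given as a description. Compared with the lists they come from, the NOD-enriched regions at the factors held more tags and had lower folds. Their median was 53 NOD tags, against 30 in all 12077 regions, and their median fold by the authors was 5.46, against 10.6. For NOD-enriched regions at any protein-coding gene, these medians were 32 tags and 8.78-fold. Only 2 of 29 (6.9%) had no B6 tag, against 34.9% of the list and 29.7% of its regions at any protein-coding gene. The B6 library thus had tags at nearly all of these sites, with a median of 5. Whether so few tags exceed background was not tested. For the 8 B6-enriched regions the median was 22.5 B6 tags, against 20 in the list, and the median fold was 8.71, against 13.8.

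**Figure D3:**
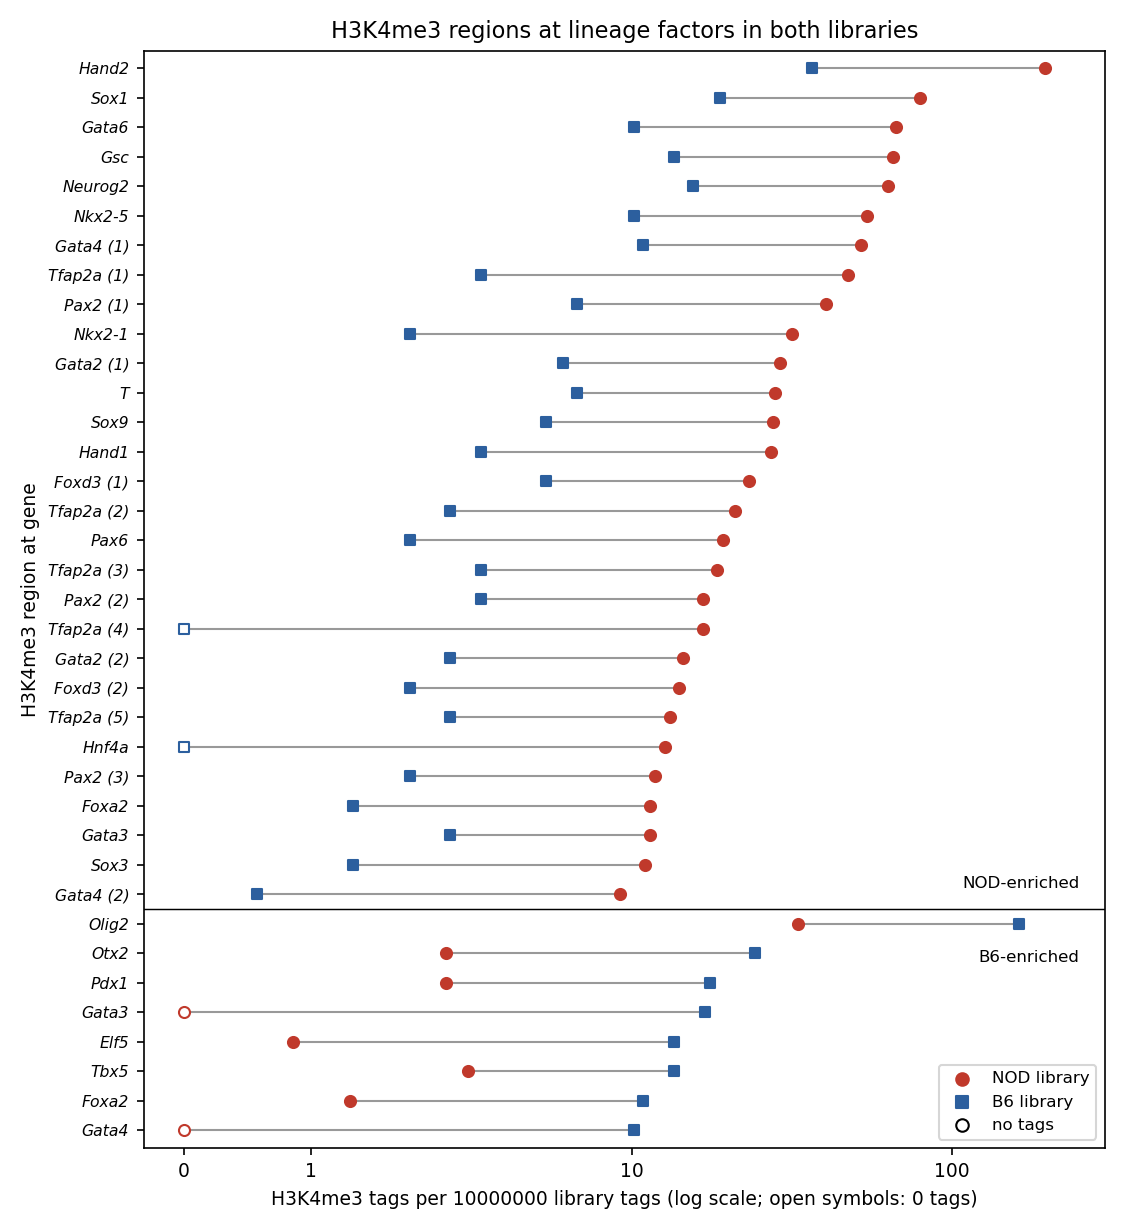
Each row is an H3K4me3 region at a lineage factor, with its tags per 10000000 library tags on a log scale (x axis) in the NOD library (red circles) and the B6 library (blue squares); open symbols at the left edge stand for 0 tags. NOD-enriched regions are above the line and B6-enriched regions below it, led by Hand2 (195.6 in NOD, 36.51 in B6) and Olig2 (32.97 in NOD, 161.6 in B6).

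Among trophoblast factors, Gata2 and Gata3, zinc-finger proteins of trophoblast and blood, carried NOD-enriched H3K4me3, and Elf5, an ETS factor of trophoblast stem cells, B6-enriched H3K4me3. At Gata2, 66 NOD and 9 B6 tags lay over the start site (chr6:88193683-88194183, 4.77-fold, 2.37 to 10.9) and 33 and 4 tags at 2.94 kb upstream (5.36-fold, 1.91 to 20.8). Gata2 was thus enriched in NOD on a chromosome where most H3K4me3 regions were B6-enriched. At Gata3 the 2 strains had neighbouring regions within the gene. A NOD-enriched region held 26 NOD and 4 B6 tags (chr2:9877408-9877908, exon, 4.23-fold, 1.47 to 16.7). A B6-enriched region further along the chromosome held 0 NOD and 25 B6 tags (chr2:9879179-9879679, intron), 12.8-fold more in B6 when the NOD value is set to a floor of 3 tags. The interval was taken from the counts without the floor. It starts at 9.67 and has no upper limit. At Elf5, an intronic region at 3.2 kb held 2 NOD and 20 B6 tags (chr2:103427741-103428241, 15.4-fold, 3.74 to 136).

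For H3K27ac, 4 trophoblast factors were named, and Tfap2c, which encodes AP-2 gamma, had the most regions. Its 4 B6-enriched regions had scores (signal of the own strain minus that of the other, on a scale the files do not state) of 94.2, 10.5, 9.84 and 8.14. The first, chr2:172613668-172619836 at 65.8 kb downstream of the start, was 6168 bp wide, ranked 235 of 5525 in the B6 list and was the only region at any of the 40 factors that met the criterion for a super enhancer, a long cluster of enhancers. Super enhancers were named for 1.42% of all genes in the B6 list and for 1.7% in the NOD list, and for 1 and 0 of the 40 factors. Tfap2c also had 2 NOD-enriched regions, with a score of 7.77 at the start site of the deposited annotation (chr2:172550737-172550970) and of 10.2 at 32.6 kb downstream (chr2:172583435-172583668). In RefSeq the gene starts at 172545678, and the first of these lay in an intron. The B6-enriched region of score 10.5 (chr2:172545159-172545498) lay just upstream of that RefSeq start. Thus the same gene was named in both strains at different sites. Of the 6 sites, 3 (the super enhancer, the one at 17.9 kb and the NOD site at 32.6 kb) had their centre in a long terminal repeat of the ERVL or ERVL-MaLR class by the deposited annotation. Repeats of any class were common in both lists, at 38.4% of all NOD-enriched and 30.5% of all B6-enriched H3K27ac regions. Among regions named for the 40 factors these shares were 33.3% and 25.0%. Cdx2, the caudal homeobox factor of trophectoderm, had 1 NOD-enriched region of score 7.77, the intronic CpG island printed above. Gata2 and Gata3 had B6-enriched H3K27ac of score 18.6 at 11.3 kb (chr6:88209648-88210205) and 28.8 at 232 kb (chr2:9646378-9647755), the longest distance of any region here.

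Endoderm factors were represented in both NOD lists and in the B6 H3K4me3 list, and 0 of 9 were in the B6 H3K27ac list, which named 16.7% of all genes. Gata6, which directs primitive endoderm, had 152 NOD and 15 B6 tags over a 1377-bp region that included a start site (chr18:11054035-11055412, 6.59-fold, 3.87 to 12.1). Gata4, its close relative, had 118 NOD and 16 B6 tags at an internal start site (chr14:63244882-63245511, 4.8-fold, 2.83 to 8.66). Elsewhere in the same gene the strains had neighbouring intronic regions of few tags. Of these, the NOD-enriched one held 21 NOD and 1 B6 tags (chr14:63269125-63269625, 13.7-fold, 2.20 to 565) and the B6-enriched one 0 NOD and 15 B6 tags (chr14:63268293-63268793, 7.69-fold at the same floor, interval from 5.52).

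Foxa2, a forkhead pioneer factor of endoderm, also had regions in both lists. The NOD-enriched region in its coding exon held 26 NOD and 2 B6 tags (chr2:148043807-148044537, 8.45-fold, 2.12 to 73.5), and the B6-enriched region in an intron held 3 and 16 (chr2:148046332-148046832, 8.2-fold, 2.35 to 43.9). For Gata3, Gata4 and Foxa2, all regions but the internal start site of Gata4 held at most 26 tags in the enriched strain, so these differences rest on few tags. Nkx2-1, a homeobox factor of thyroid, lung and forebrain, had 72 NOD and 3 B6 tags in a coding exon (chr12:56533240-56533975), the highest fold of any NOD-enriched region with B6 tags (15.6, 5.13 to 77.4). Hnf4a, a nuclear receptor of visceral endoderm and liver, had 29 NOD and 0 B6 tags in an intron (chr2:163510430-163510930), 6.29-fold more in NOD at that floor (interval from 4.79). Pdx1, the pancreatic homeobox factor, had 6 NOD and 26 B6 tags in its coding exon (chr5:147270233-147270733, 6.67-fold, 2.68 to 19.8), close to the start of the noncoding gene Plut. Its H3K4me3 was therefore in the B6 list alone.

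For H3K27ac, the endoderm factors had 2 regions, both NOD-enriched. The score was 17.0 at 13.1 kb upstream of Gata6 (chr18:11039191-11039571) and 15.3 in the intron of Hnf4a printed above, 4.68 kb from its H3K4me3 region. Sox17 and Sox7, SOX factors of primitive endoderm, and Foxa1 had no region by these rules. Beyond 5 kb, Foxa1 was the gene nearest to NOD-enriched H3K4me3 regions of 36 NOD and 1 B6 tags at 7.68 kb and of 17 and 0 at 92.9 kb. It was also nearest to a B6-enriched region of 0 NOD and 12 B6 tags at 11.5 kb. Sox17 was nearest to a B6-enriched region of 4 NOD and 25 B6 tags at 91.0 kb.

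Mesoderm gave the single region with the most tags. At Hand2, a basic helix-loop-helix factor of heart and limb, 445 NOD and 54 B6 tags lay 0.582 kb inside the gene, beside the start of the divergent noncoding gene Hand2os1 (chr8:57321173-57321958, 5.36-fold, 4.03 to 7.25). It ranked 81 of 12077 by tags, on a chromosome with a raised share of NOD-enriched regions. Its relative Hand1 had 62 NOD and 5 B6 tags downstream of the gene, 4.06 kb from the start (chr11:57827835-57828335, 8.06-fold, 3.28 to 25.7). Gsc, the homeobox factor of the gastrula organizer, had 149 NOD and 20 B6 tags in an intron (chr12:104472262-104473033, 4.84-fold, 3.03 to 8.16).

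Nkx2-5, the cardiac homeobox factor, had 124 NOD and 15 B6 tags upstream of the gene (chr17:26849965-26850915, 5.38-fold, 3.14 to 9.89). At T (Brachyury), the T-box factor of the primitive streak, 64 NOD and 10 B6 tags covered the start site and all of the CpG-rich sequence printed above (chr17:8434134-8434634, 4.16-fold, 2.12 to 9.09). Both strains thus had tags at T, and its fold was close to the threshold of 4 used in calling. Pax2, a paired-box factor of kidney and midbrain, had 3 NOD-enriched regions. The one at the start site held 92 NOD and 10 B6 tags (chr19:44756606-44757574, 5.98-fold, 3.11 to 12.9), the other 2 held 38 and 5 tags and 27 and 3 tags. Tbx5, a T-box factor of heart and forelimb, was the only mesoderm factor with B6-enriched H3K4me3, with 7 NOD and 20 B6 tags in an intron (chr5:119839483-119839983, 4.40-fold, 1.79 to 12.3).

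Of the H3K27ac regions of mesoderm factors, those at Cdx1 and Gsc were weak by score. NOD-enriched scores were 25.1 at 60.4 kb upstream of Pax2 (chr19:44696856-44697089), 6.65 in an intron of Cdx1, a caudal factor of posterior mesoderm (chr18:61034394-61034627), and 5.86 at 65.1 kb upstream of Gsc (chr12:104538234-104538467). Eomes, a T-box factor of the primitive streak and trophoblast, had the only B6-enriched one, with a score of 16.2 at 10.7 kb (chr9:118488676-118489086). The median score was 12.9 over the whole NOD list and 12.8 over the B6 list.

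In neuroectoderm, 4 factors had H3K4me3 in the NOD list alone and 2 in the B6 list alone. Sox1, a SOX factor of the neural plate, had 181 NOD and 28 B6 tags in its coding exon (chr8:12396821-12397321, 4.20-fold, 2.81 to 6.50). Neurog2, a proneural helix-loop-helix factor, had 144 NOD and 23 B6 tags across its start site (chr3:127632847-127634078, 4.07-fold, 2.61 to 6.63). Both folds were near the calling threshold of 4, with more than 20 tags in B6. Pax6, the paired-box factor of eye and forebrain, had 44 NOD and 3 B6 tags 0.418 kb upstream of a start (chr2:105675076-105675576, 9.54-fold, 3.06 to 48.0). Sox3, on the X chromosome, had 25 NOD and 2 B6 tags just upstream of its gene (chrX:60893431-60893931, 8.13-fold, 2.03 to 70.8).

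In the opposite direction, Olig2, a helix-loop-helix factor of motor neurons and oligodendrocytes, held the broadest H3K4me3 region of the set. It covered 2654 bp over the start of the gene, with 75 NOD and 239 B6 tags (chr16:91225056-91227710, 4.90-fold, 3.77 to 6.44), and ranked 19 of 7587 B6-enriched regions by tags. Otx2, a homeobox factor of the epiblast and forebrain, had 6 NOD and 36 B6 tags over an internal start site (chr14:48664934-48665740, 9.23-fold, 3.85 to 26.8). Both also had B6-enriched H3K27ac. For Olig2 the score was 9.16 upstream of the gene, and for Otx2 it was 38.7 at 36.8 kb downstream (chr14:48625206-48626849) and 6.34 at 72.7 kb downstream. The neuroectoderm factors with NOD-enriched H3K27ac were Sox1, with a score of 25.1 at 43.9 kb (chr8:12438774-12440094), Neurog2, with 17.6 at 36.0 kb upstream within Zgrf1, and Pax6, with 9.92 at 105 kb within Elp4. For these 3 genes and for Olig2 and Otx2, both marks were in the lists of the same strain.

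By the same rule, 3 of 6 neural crest factors had NOD-enriched and 0 of 6 B6-enriched H3K4me3, against 24.4% and 16.5% of all genes. Tfap2a, which encodes AP-2 alpha and acts in neural crest and surface ectoderm, had 5 NOD-enriched regions, more than any other factor. They held 108 NOD and 5 B6 tags (chr13:40728277-40729052, 14.0-fold, 5.84 to 44.1), 48 and 4, 42 and 5, 38 and 0 (8.24-fold at the floor, interval from 6.38), and 30 and 4 tags. The region without B6 tags lay in an intron at 9.46 kb, and the others had their centres within 1 kb of a start site of the gene. Foxd3, a forkhead factor of neural crest and of pluripotent cells, had 53 NOD and 8 B6 tags 3.02 kb upstream (chr4:99653025-99653525, 4.31-fold, 2.04 to 10.5) and 32 and 3 tags downstream of the gene (6.94-fold, 2.17 to 35.4). Sox9, a SOX factor of crest and cartilage, had 63 NOD and 8 B6 tags in its first exon (chr11:112782334-112782834, 5.12-fold, 2.45 to 12.4).

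Foxd3 also had the most NOD-enriched H3K27ac regions of the 40 factors. Its 4 regions lay upstream at 86.0, 54.2, 20.5 and 5.96 kb and had scores of 45.5, 9.92, 27 and 6.53. The highest of them (chr4:99569663-99570960) lay near the start of the noncoding gene Gm40211. The 2 B6-enriched crest regions were at Tfap2a, with a score of 13.8 at 21.7 kb upstream (chr13:40756463-40756828, in a repeat of the MaLR class), and at Pax7, a paired-box factor of crest and muscle, with 6.0 in an intron (chr4:139767565-139767827). Tfap2a therefore had H3K4me3 in the NOD list and H3K27ac in the B6 list.

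**Figure D4:**
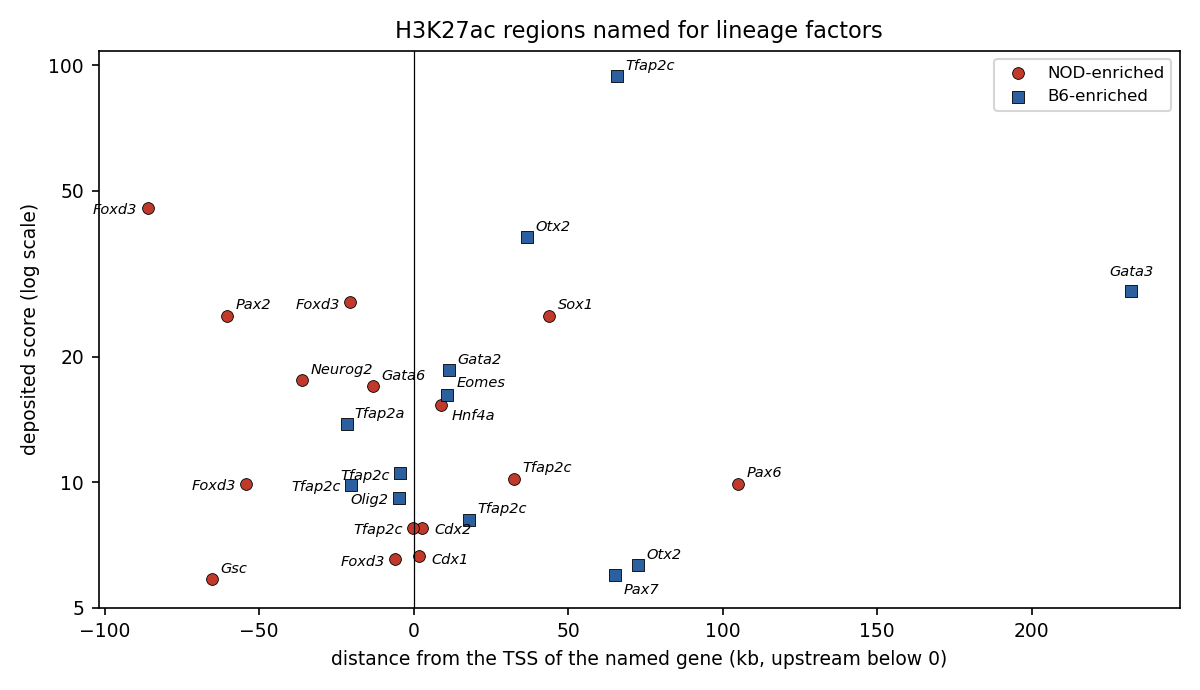
Each point is an H3K27ac region named for a lineage factor, placed by its distance from the TSS in kb (x axis, upstream below 0) and its deposited score on a log scale (y axis), with red circles for NOD-enriched and blue squares for B6-enriched regions. The Tfap2c super enhancer (94.2, B6) and the Foxd3 region at -86.0 kb (45.5, NOD) have the highest scores among the factors in each list, and most regions lie away from the start site.

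How often the 2 marks were found at the same factor was then compared. Both marks were NOD-enriched at 8 factors (20%), which were Foxd3, Gata6, Gsc, Hnf4a, Neurog2, Pax2, Pax6 and Sox1, against 7.34% of all genes and 3 of 43 other factors. Each mark alone was also NOD-enriched at a higher share of factors (50.0% against 24.4%, and 27.5% against 18.3%). Whether the marks met more often than these single shares imply was not tested. Both were B6-enriched at Gata3, Olig2 and Otx2 (7.5%), against 4.66%. NOD-enriched H3K4me3 with B6-enriched H3K27ac was seen at Gata2, Gata3 and Tfap2a (7.5%), against 5.49%. The reverse, B6-enriched H3K4me3 with NOD-enriched H3K27ac, was seen at 0 of 40 factors, against 3.72%. Among H3K4me3 regions in the gene body or within 5 kb of a TSS, none overlapped an H3K27ac region named for the same factor, and the smallest gap was 2.57 kb, at Foxd3.

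By position, 7 of 29 NOD-enriched and 2 of 8 B6-enriched H3K4me3 regions covered a start site of the factor. The centres of the NOD-enriched ones lay in introns (10), untranslated or noncoding exons (7), coding exons (5), upstream (5) and downstream (2) of the gene. For the B6-enriched ones these were introns (5), untranslated or noncoding exons (2) and a coding exon (1). H3K27ac centres were outside the gene in 11 of 15 NOD-enriched and 11 of 12 B6-enriched regions. These position counts were not made for all regions, so they do not set the factors apart from other genes. By the deposited distance, 3 of these 15 and 2 of these 12 H3K27ac regions lay within 5 kb of a TSS. In the whole lists, 27.5% of NOD-enriched and 19.9% of B6-enriched H3K27ac regions did so. Most H3K27ac regions of both whole lists thus also lay away from a start site. Another gene started within 1 kb of some regions, which therefore need not belong to the factor alone. For H3K4me3 this held at Gsc (Gm10000), Hand2 (Hand2os1), Pax2 (1700039E22Rik, the region of 38 NOD tags), Sox3 (Gm38438), Tfap2a (Gm26688, the region of 108 NOD tags) and Pdx1 (Plut). For H3K27ac it held at Eomes (Gm33460), Cdx1 (Gm52351) and Foxd3 (Gm40211).

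Promoter CpG content was measured as the observed over expected CpG ratio in 500 bp on each side of the most upstream TSS. The median was 0.648 over the 40 factors and 0.516 over all protein-coding genes. It was 0.656 for the 20 factors with NOD-enriched H3K4me3, 0.508 for the 8 with B6-enriched H3K4me3 and 0.649 for the 15 with neither. A ratio above 0.6 was found at 13 of the 20 and 1 of the 8 (Olig2), against 57.3% of all genes with NOD-enriched and 50.6% of all genes with B6-enriched H3K4me3. This contrast depended on the start site chosen, because several of these genes have a CpG-rich start further inside the gene. With the TSS of the highest ratio, a choice made after seeing the data, 18 of the 20 and 6 of the 8 were above 0.6, and the medians were 0.765 and 0.651, against 0.617 for all genes. Among all genes with a ratio above 0.6 at the most upstream TSS, 32.3% had NOD-enriched H3K4me3, against 18.3% of the rest, and 13 of 24 and 7 of 16 factors did so. For B6-enriched H3K4me3 these shares were 19.3% and 14.3%, and 1 of 24 and 7 of 16 factors.

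Short motifs were searched on both strands in the RefSeq promoters of 250 bp upstream and 50 bp downstream of a TSS, which held 39 promoters of 27 of the 40 factors among 32851. Without an entry were Sox3, Hand1, Tfap2c, Cdx1, Gata6, Mixl1, Tbx5, Sox17, Pax3, Gata4, Sox9, Sox10 and Sox7. The GATA motif AGATAA was found in 5 of 39 promoters (11.2% of all), the AP-2 motif GCCNNNGGC in 9 (16.6%), the homeodomain motif TAATTA in 7 (5.29%), the octamer ATGCAAAT in 3 (1.74%), the SOX motif ACAATGG in 2 (3.66%) and the T-box motif AGGTGTGA in 1 (1.28%). The homeodomain matches were at Hand2, Hnf4a, Neurog1, Otx2, Tbx6 and Tfap2a, where some promoters of 1 gene overlap, and the octamer matches at Cdx2, Neurog1 and Sox1. In the narrowest B6-enriched H3K27ac regions, the SOX motif was found in 3 of 5 at the factors (1 at Pax7 and 2 at Tfap2c), against 4.22% of 2793 such regions, and each of the other 5 motifs in 0 of 5. In the narrowest NOD-enriched ones, the GATA, homeodomain and AP-2 motifs were each found in 1 of 11 (11.9%, 5.74% and 9.13% of 2890 regions) and the SOX, octamer and T-box motifs in 0 of 11 (3.11%, 1.21% and 0.623%). None of these 6 motifs was found in the sequences printed above. A match is a string of letters and was not shown to be a binding site.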

How the data were processed

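ES cells of both strains were profiled by ChIP-Seq, with single-end reads of 50 bp. According to the study's methods, bowtie2, of a version not named there, mapped the reads to mm10 and HOMER called the regions. The submitters' processing notes instead list mm9, STAR 2.2.0c and CASAVA 1.8.2. The H3K27ac headers name mm10. As a check for H3K4me3, 31.8% of the 500 widest NOD-enriched and 37.6% of the 500 widest B6-enriched regions lay within 1 kb of a TSS of GRCm38.p6, against 14.0% and 9.6% after moving them by 100 kb, so mm10 was used throughout. Positions are printed as deposited.

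Each list was called by the authors with the other strain as background. For H3K4me3, the deposited file headers give peaks of 500 bp, at least 8 tags, and, against the other strain, a fold of 4 and a Poisson p-value of 1.00e-04. The deposited count of tags in the NOD list is scaled to the B6 library, and whole tags were recovered from it with the library totals (largest deviation from a whole number 0.077). Regions without tags in the other strain carry a small placeholder value and were treated as 0. The deposited signal per region is the tags per 10000000, and the deposited fold is the ratio of scaled tags of both strains. A deposited p-value compares 2 libraries in a region and was not used. For H3K27ac, the authors ran the super enhancer pipeline of HOMER, and the deposited score is the own signal minus that of the other strain, with no count or depth. Super enhancers were regions with a score above 0 and a slope value of at least 1, or 1 of the 5 highest scores.

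Regions were assigned to genes, and folds, exact 95% conditional binomial intervals and sequence features were computed, with pysam 0.24.0, scipy 1.17.1, pandas 2.3.3 and numpy 2.4.6 under Python 3.11.15. The functions were tested on simulated data. Folds against 0 tags used a floor of 3 tags. With 1 library per strain and mark no test between strains was possible, and shares of factors are set beside shares of all 21787 protein-coding genes. Every factor with a region is named, and of the 43 other lineage factors only the 3 with the most tags or the highest score in each list. The factors, the other lists, the germ layers and the motifs were chosen with earlier results of these data known. Alternatives covered the gene assignment, fold, tags, score, chromosomes and the start site used for CpG content.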

Additional observations from a re-analysis of the deposited data

How the results depend on the processing

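The count of factors with NOD-enriched H3K4me3 (20) stayed between 14 and 26 when regions were assigned within 1 kb, 5 kb or 20 kb of a TSS or to the nearest TSS. It was 8 with a fold of at least 8 and 9 with at least 50 own-strain tags on the B6 library scale. The count for B6-enriched H3K4me3 (8) was 5 within 1 kb, 17 by the nearest TSS, 5 at a fold of 8, 1 at 50 tags and 4 at 25 tags, the last a minimum chosen after seeing the data, at which NOD had 16. For H3K27ac, there were 4 factors with NOD-enriched and 3 with B6-enriched regions in place of 11 and 8 when the gene body or 5 kb was required, 3 and 3 with a score of at least 20, and 0 and 1 for super enhancers alone. Without chromosomes 6, 8 and X, also chosen after seeing the data, the counts were 16, 8, 10 and 7. The number with a region in any list was 30, or 29 with the H3K4me3 rule for both marks. Apart from the main rules, shares of all genes were computed only within 1 kb of a TSS and for super enhancers. The other counts of factors therefore do not show how the factors compare with all genes at those settings. With the TSS of the highest CpG ratio, 6 in place of 1 of the factors with B6-enriched H3K4me3 were above 0.6. With 1 tag added to both strains, 33 of 37 folds were at 4 or more, and 5 moved by more than 1.5 times, all at regions with 0 or 1 tags in the other strain (from 13.7 to 7.15 at Gata4 in NOD, from 12.8 to 39.99 at Gata3 in B6). No paired analysis was possible because each group is a single library. Counting error limits the weaker regions, which rest on 15 to 30 tags, and the NOD H3K4me3 library was 1.54 times deeper, whose part in the counts was not tested.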

Other observations

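Beyond the gene body and 5 kb, further H3K4me3 regions had a lineage factor as the protein-coding gene with the nearest start, 33 NOD-enriched regions at 15 factors and 24 B6-enriched regions at 12. Only 1 of them overlapped an H3K27ac region named for its factor. These counts were not made for all genes, so they do not show whether the factors differ from other genes. At 86.0 kb upstream of Foxd3, H3K4me3 held 671 NOD and 31 B6 tags (chr4:99569409-99571246, 14.07-fold, 95% interval 9.82 to 20.88), more NOD tags than any region within the rule, over the Foxd3 H3K27ac region of score 45.5 and the start of Gm40211. The distal region with the highest fold was B6-enriched, with 0 NOD and 103 B6 tags at 391 kb from Sox9, its nearest start (chr11:113172556-113173181, 52.8-fold against a floor of 3 tags, interval from 42.2). Upstream of Gata6, a region at 11.9 kb held 49 NOD and 4 B6 tags (chr18:11040159-11040977, 7.96-fold, 2.92 to 30.4) and lay 0.588 kb from its NOD-enriched H3K27ac region. Among the other lineage factors, Msgn1, a factor of presomitic mesoderm, and Msx2, a homeobox factor, had NOD-enriched super enhancers, with scores of 257.2 at 10.6 kb upstream and 208.3 at 6.84 kb. The sites were chosen after their values were seen, and no explanation was tested.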
